A study of Mus musculus with 6 samples.

Results

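A group of 16 genes was expressed in serum-grown embryonic stem (ES) cells and was left with few reads after 13 days in 2i+vitC. A gene was a member if its name was unique, if both D0 values lay above a log2 CPM of 2, which is 4 CPM, and if both D13 values lay below -1, which is 0.5 CPM. CPM is a read count scaled to the size of its library. Of 12626 genes listed, 12522 had a unique name, 10216 met the D0 condition, 51 met the D13 condition and 16 met both. Names starting with Zscan4 or Hox were to be left out, which removed 0 genes. The members were thus chosen by their D0 and D13 values, so that their distance between these days is a description and carries no test.

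RNA was sequenced from WT J1 cells, a mouse ES cell line, at D0 in serum medium and at D6 and D13 of conversion to 2i+vitC, as 2 replicates on each of the 3 days. The D0 medium contained 15% FBS. The D6 and D13 medium was free of serum and contained 3 μM of the Gsk3 inhibitor CT-99021, 1 μM of the MEK inhibitor PD0325901 and 100 μg/mL of vitamin C. LIF at 1000 U/mL and gelatin-coated plates were common to all 6 samples. All samples come from a single line, and no culture kept in serum for 13 days was analysed here, so that medium and time in culture cannot be told apart. The replicates are called biological by the study. A p-value below sets a difference between days against the spread between replicates. That spread is pooled over the days and drawn towards a trend over all features.

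ES cells in serum and LIF receive growth factor and BMP signals and form a mixed population, in which some cells carry transcripts of early differentiation. The 2i inhibitors block MEK/ERK signaling and stabilize beta-catenin, which holds the cells in a more uniform, naive pluripotent state. Vitamin C is a cofactor of the TET dioxygenases, and 2i+vitC medium is known for a loss of CpG methylation.

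The 16 members were 15 protein-coding genes and 1 long noncoding RNA, spread over 11 chromosomes. They were signaling receptors and their partners (Fgfr2, Ramp3, Gpsm3), transcriptional regulators (Id3, Klf12, Foxn4, Bend5), a cyclin and a phosphatase (Ccnd2, Ctdspl), adhesion and surface proteins (Itga9, Cd34), a growth cone protein (Gap43), a membrane trafficking protein (Ehd3), an immunity GTPase (Irgm1), a ketone metabolism enzyme (Bdh2) and the noncoding RNA Miat. Over the members, the median of the mean log2 CPM was 3.73 in serum, 0.03 by D6 and -1.77 by D13, while over all genes it was 4.84, 4.89 and 4.83. The mean was lower at D13 than at D0 by 13.7-fold for Bend5 and by up to 184-fold for Id3. Few reads remained at D13, between 4 and 37 per gene and sample, whereas 410 to 5657 reads were counted at D0. Every member had more than 3 reads in both D13 samples, so that these genes were low rather than without reads. In bulk RNA, fewer cells expressing a gene and less RNA per cell cannot be told apart.

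**Figure D1:**
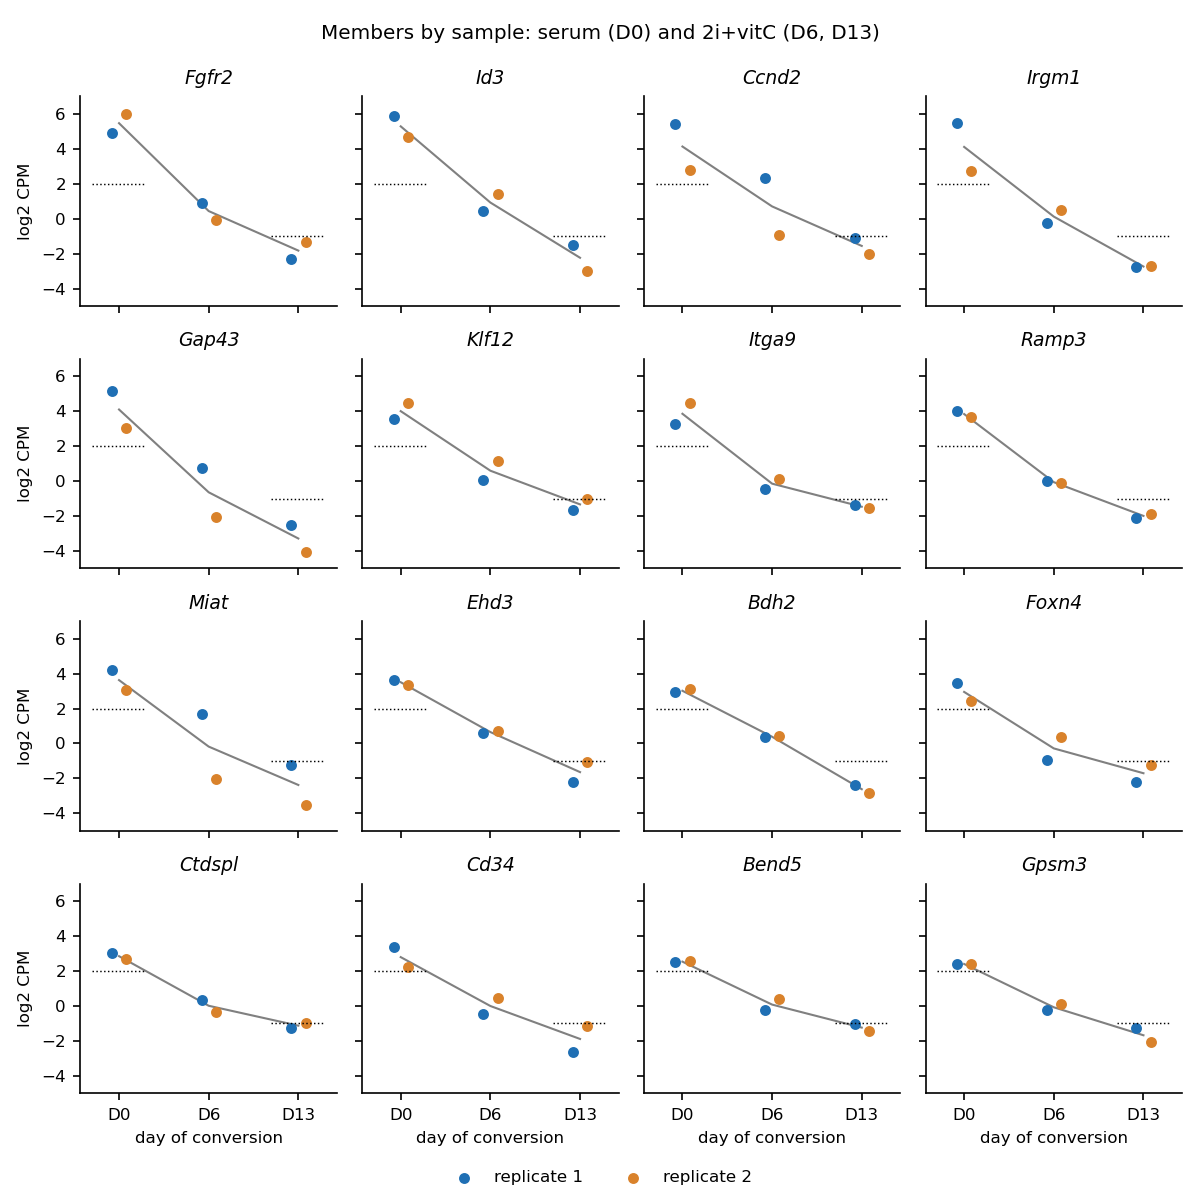
Log2 CPM of each of the 16 members (y axis) at D0, D6 and D13 (x axis). Points are samples, colored by replicate, grey lines join the means of each day (n = 2), and dotted lines mark the D0 threshold of 2 and the D13 threshold of -1. The D6 samples lie below both D0 samples for all 16 genes, and the replicates stand far apart for Ccnd2, Gap43 and Miat at D6.

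Levels can be compared between genes per length of exon. On CPM per kb of exon, the arithmetic mean at D0 was highest for Id3 with 32.9, followed by Gap43 with 15.4, Irgm1 with 11.3 and Ramp3 with 10.4. The same quantity was 4.75 for Fgfr2 and 1.02 for Cd34, the lowest of the members. The order at D0 by reads alone was different, since the exons of Fgfr2 are far longer than those of Id3.

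CpG methylation is the layer that 2i+vitC is known for, so the CpG content at an annotated start of the members was read from the RefSeq sequence of GRCm38.p6, the build the authors call mm10. The RefSeq promoter windows of 300 bases, 250 before and 50 after 1 start site per gene, held 14 of the 16 members, without Ccnd2 and Gap43. The windows of the members had a median of 13 CpG sites, with a range from 4 for Fgfr2 to 43 for Ctdspl. For 12 of the 14 the start site of the window lay within 2 kb of the outer 5′ end of the gene bounds given here. For Klf12 and Itga9 it was an inner start, 136.1 kb and 105 kb inside the gene, so that their outer start was not examined. Without Klf12 and Itga9 the median was 17. Over all 32851 promoter windows the median was 7 and the quartiles were 3 and 20. These windows were not limited to genes listed or expressed in these samples, whereas all members were expressed in serum. The 200 bases upstream of the start are given for the member with the largest difference (Id3) and for those with the lowest and the highest CpG number (Fgfr2 and Ctdspl), at chr4:136143622-136143821 on the plus strand, chr7:130266809-130267008 on the minus strand and chr9:118926336-118926535 on the plus strand. CpG sites are in capitals, and there are 15 in the Id3 stretch, 2 in that of Fgfr2 and 26 in that of Ctdspl.
Id3: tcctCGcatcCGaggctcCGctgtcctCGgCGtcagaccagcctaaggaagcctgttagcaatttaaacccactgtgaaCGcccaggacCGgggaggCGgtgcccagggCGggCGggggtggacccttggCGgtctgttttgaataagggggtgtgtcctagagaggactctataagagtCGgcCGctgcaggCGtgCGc
Fgfr2: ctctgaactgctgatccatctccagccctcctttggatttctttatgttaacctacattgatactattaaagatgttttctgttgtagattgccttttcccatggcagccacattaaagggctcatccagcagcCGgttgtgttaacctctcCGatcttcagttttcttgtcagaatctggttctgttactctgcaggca
Ctdspl: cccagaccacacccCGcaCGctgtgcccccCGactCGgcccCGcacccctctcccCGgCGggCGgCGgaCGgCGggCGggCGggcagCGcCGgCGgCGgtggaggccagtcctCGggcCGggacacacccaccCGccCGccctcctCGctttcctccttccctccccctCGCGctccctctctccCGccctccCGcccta

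Among the 12 windows near the outer end, the CpG content was quite different, from Fgfr2, Gpsm3 and Bdh2 with 4 to 6 sites to Foxn4, Ehd3, Miat and Ctdspl with 22 to 43. The inner windows of Klf12 and Itga9 held 6 and 10. A single start site was examined per gene, and no methylation data were analysed here. Short motifs were searched on both strands of the same 14 windows, the inner ones of Klf12 and Itga9 included. The AP-1 motif TGANTCA was in 2 of 14 member windows, those of Irgm1 and Itga9, and in 7.81% of all windows. The TEAD motif GGAATG was in 4 of 14, those of Gpsm3, Id3, Klf12 and Ramp3, and in 14.7% of all windows. The GC-rich SMAD motif GGCGCC was in 2 of 14 (Ehd3 and Miat, 11.9% of all), the E-box CACGTG in 1 (Fgfr2, 7.15% of all), TATAAA in 1 (Klf12, 13.6% of all) and the CArG box in 0 (1.63% of all). None of these motifs was thus shared by more than 4 of the 14 windows. TATAAA can lie within a CArG box, and the others share no whole motif. A match is a run of letters only and shows no binding.

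Among the receptors, Fgfr2, a receptor tyrosine kinase for fibroblast growth factors, had the highest mean CPM of all members at D0 before any correction for length. Its log2 CPM, given here and below as replicate 1 and replicate 2, was 4.93 and 6.02 in serum, 0.92 and -0.04 by D6 and -2.30 and -1.35 by D13. The days did not overlap, and the mean at D13 was 157-fold below that at D0. The gene lies on chromosome 7 at 130162451 to 130266808 (all positions are on GRCm38.p6). Ramp3 (chromosome 11, 6658506 to 6677478), which escorts calcitonin family receptors to the cell surface, had a log2 CPM of 4.01 and 3.67 in serum, 0.01 and -0.13 by D6 and -2.12 and -1.87 by D13. Its replicates differed by at most 0.34 on any day, and its mean moved by -3.90 up to D6 and by -1.93 after it. Gpsm3 (chromosome 17, 34589806 to 34591754), a regulator of G protein signaling, was at 2.39 and 2.40 in serum, -0.25 and 0.07 by D6 and -1.28 and -2.10 by D13. It was the member with the lowest mean CPM at D0, again without regard to length, with 412 and 460 reads there and 29 and 17 reads at D13. Gpsm3 overlaps Pbx2 on the same strand, so that reads in the shared stretch could not be assigned with certainty.

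Of the transcriptional regulators, Id3 stood out by the size of its difference. Id3 (chromosome 4, 136143822 to 136145392) is a helix-loop-helix protein without a DNA-binding domain that holds back differentiation factors and is a known target of BMP signaling. It had a log2 CPM of 5.89 and 4.69 in serum, 0.45 and 1.41 by D6 and -1.49 and -2.98 by D13, without overlap between days. This corresponds to 4681 and 2248 reads at D0 and to 25 and 9 reads at D13. Klf12 (chromosome 14, 99866181 to 100285891), a zinc finger repressor of the Krüppel-like family, went from 3.53 and 4.48 at D0 through 0.05 and 1.14 at D6 to -1.67 and -1.001 at D13. Its higher D13 sample lay just under the threshold, as did that of Ctdspl.

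Foxn4 (chromosome 5, 114254164 to 114274418), a forkhead factor of retinal and spinal cord progenitors, had a log2 CPM of 3.44 and 2.46 in serum, -0.96 and 0.39 by D6 and -2.21 and -1.21 by D13. Its lower D6 sample came close to its higher D13 sample without an overlap. For Bend5 (chromosome 4, 111413794 to 111460298), a BEN domain protein, the values were 2.48 and 2.57 in serum, -0.27 and 0.40 by D6 and -1.05 and -1.45 by D13. Bend5 had the smallest difference of the members, -3.78 between the means of D0 and D13 on the log2 scale, and its D0 replicates were close together. It lies within the longer gene Agbl4, on the same strand.

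Ccnd2 (chromosome 6, 127125162 to 127152188), a D-type cyclin that drives entry into S phase, stood out by its replicate spread. Its log2 CPM was 5.45 and 2.82 in serum, 2.32 and -0.90 by D6 and -1.09 and -2.02 by D13. Replicate 1 was above replicate 2 on each day, and D6 replicate 1 came near the level of D0 replicate 2. Ctdspl, a small phosphatase that acts on RNA polymerase II and on RB1, had a log2 CPM of 3.03 and 2.65 in serum, 0.34 and -0.33 by D6 and -1.28 and -1.001 by D13. The Ctdspl locus also carries the microRNA gene Mir26a-1 in an intron, for which no value was measured here.

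Both genes of surface proteins were far lower in 2i+vitC. Itga9, the integrin subunit that pairs with beta 1, had a log2 CPM of 3.26 and 4.45 in serum, -0.43 and 0.14 by D6 and -1.38 and -1.56 by D13. Its mean at D6 had covered 75.2% of the distance to D13 on the log2 scale, the largest share of the members. Cd34 (chromosome 1, 194938821 to 194961292), a sialomucin of blood and endothelial progenitors, had 3.34 and 2.23 in serum, -0.46 and 0.43 by D6 and -2.64 and -1.16 by D13. Its D0 replicate 2 was the D0 value nearest to the threshold among all members.

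Gap43 (chromosome 16, 42248552 to 42340651), a membrane protein of growing axons, is listed in the files as p43, as their names lack each capital G and the letter after it. The log2 CPM was 5.14 and 3.06 in serum, 0.77 and -2.05 by D6 and -2.52 and -4.06 by D13. D13 replicate 2 held 4 reads of this gene, the lowest number of any member. Miat (chromosome 5, 112213228 to 112228948), a nuclear long noncoding RNA of neurons and heart, had 4.21 and 3.04 in serum, 1.69 and -2.05 by D6 and -1.23 and -3.53 by D13. For Miat the D6 and D13 samples overlapped, since D6 replicate 2 lay below D13 replicate 1. This was the only overlap between adjacent days among the members.

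Ehd3 (chromosome 17, 73804841 to 73832093), an ATPase of endosomal recycling, had a log2 CPM of 3.64 and 3.37 in serum, 0.59 and 0.71 by D6 and -2.21 and -1.08 by D13. Bdh2 (chromosome 3, 135281221 to 135304426), a cytosolic dehydrogenase of ketone body metabolism, was at 2.92 and 3.11 in serum, 0.35 and 0.42 by D6 and -2.40 and -2.84 by D13. The replicates of Bdh2 differed by at most 0.43 on any day. Bdh2 was the member with the smallest share of its distance covered by D6, 46.7%. Irgm1 (chromosome 11, 48865245 to 48871420), an interferon-inducible GTPase of cell-autonomous immunity, was at 5.51 and 2.72 in serum, -0.25 and 0.49 by D6 and -2.77 and -2.71 by D13. The D0 samples of Irgm1 were 2.79 apart, the widest D0 gap of the members, while its D13 samples were nearly equal.

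The D6 samples had no part in the rule. At D6 the members lay between both states, with log2 CPM from -2.05 to 2.32 and 20 to 392 reads per sample. No member had both D6 samples below -1 and none had both above 2. The first of these counts is set by how the table was made. Each listed gene had more than 1 CPM in at least 3 of the 6 samples, with a lowest third-highest CPM of 1.02 before scaling, so that a member needed at least 1 D6 sample above 1 CPM to be listed. In 12 members it was a single D6 sample and in 4 it was both. Genes that were already low in both D6 samples could thus not be found by this rule.

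Both D0 samples were above both D6 samples in 16 of 16 members, against 35.2% of all genes. Both D6 samples were above both D13 samples in 15 of 16, with Miat as the exception, against 31.5% of all genes. Since high D0 and low D13 values chose the members, nothing is read from these shares. The median member had covered 63.6% of its log2 distance from D0 to D13 by D6, with a range from 46.7% to 75.2%. These shares and the steps are bounded by the need for a D6 sample above 1 CPM, and nothing is read from them. The median step was -3.42 up to D6 and -2.07 after it, against -0.01 for each step over all genes.

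In limma fits over all genes, with a call at more than a 4-fold difference and an adjusted p under 0.05, 15 of 16 members were called lower from D0 to D6 (3.9% of all genes). From D6 to D13, 3 of 16 were called lower (0.697% of all genes). The member without a call from D0 to D6 was Ccnd2, whose D6 replicates were 3.22 apart. The 3 members with a call from D6 to D13 were Id3, Ehd3 and Bdh2. This count was 0 without D6 replicate 2 or without D13 replicate 1 and 1 without D6 replicate 1. Blocking on the replicate number raised it to 8. From D0 to D13, where the rule used the contrast, 16 of 16 were called (6.01% of all genes). All 3 contrasts share samples with the rule, and these counts are descriptions.

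The median spread between replicates was wider for the members than for all genes. Their median absolute difference between replicates was 1.04 in serum, 0.81 by D6 and 0.88 by D13 on the log2 scale, against 0.34, 0.15 and 0.38 over all genes. The difference was smaller than this median of all genes for 5 members in serum, 2 by D6 and 4 by D13. At D6, 11 of 16 members differed by less than 1 between replicates, and the widest gap was 3.74 for Miat. Replicate 1 was higher than replicate 2 on all 3 days for 3 of 16 members, Ccnd2, Gap43 and Miat, against 13.4% of all genes. The opposite order on all 3 days was found for 1 member, Klf12, and for 18.8% of all genes. The reads of the members are few at D6 and D13, and the part of counting error in this spread was not tested.

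**Figure D2:**
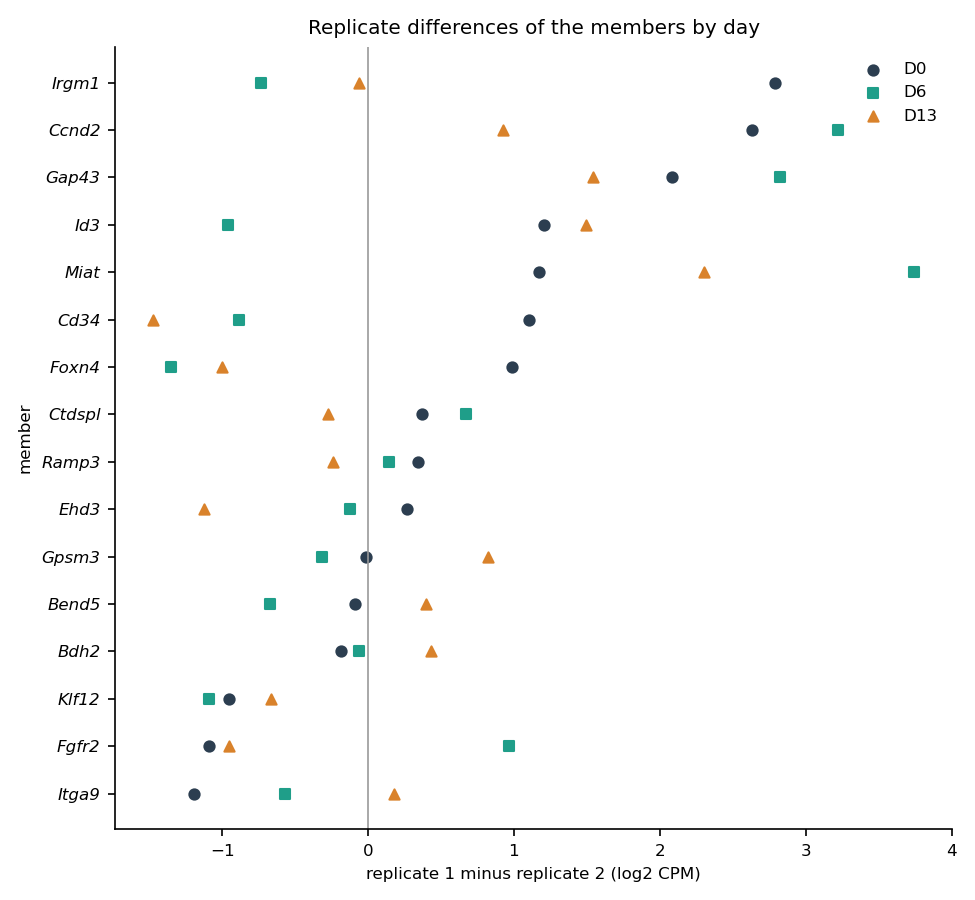
Difference in log2 CPM between replicate 1 and replicate 2 (x axis) for each member (y axis), with D0 as circles, D6 as squares and D13 as triangles. Ccnd2, Gap43 and Miat lie to the right of 0 on all 3 days, Klf12 lies to the left on all 3, and Miat at D6 has the widest gap with 3.74.

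The thresholds cut through a continuous range. Just inside the D0 threshold were Cd34, Gpsm3 and Foxn4, whose lower D0 values were 2.23, 2.39 and 2.46. Just outside were Invs, a ciliary protein, with 1.98, Gnao1, a G protein subunit listed as ao1, with 1.83, and Ecm1, an extracellular matrix protein, with 1.72. Just inside the D13 threshold were Ctdspl and Klf12 with -1.001 and Bend5 with -1.05. Just outside were Chst15, a sulfotransferase, with -0.96, and Myc, Thap2 and Nnat with -0.86. Myc was at 6.55 and 5.45 at D0 and at -0.86 and -1.12 at D13, so that its difference was as wide as that of many members. In all, 67 genes met the D0 condition with a higher D13 value between -1 and 0, and 13 met the D13 condition with a lower D0 value between 1 and 2.

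**Figure D3:**
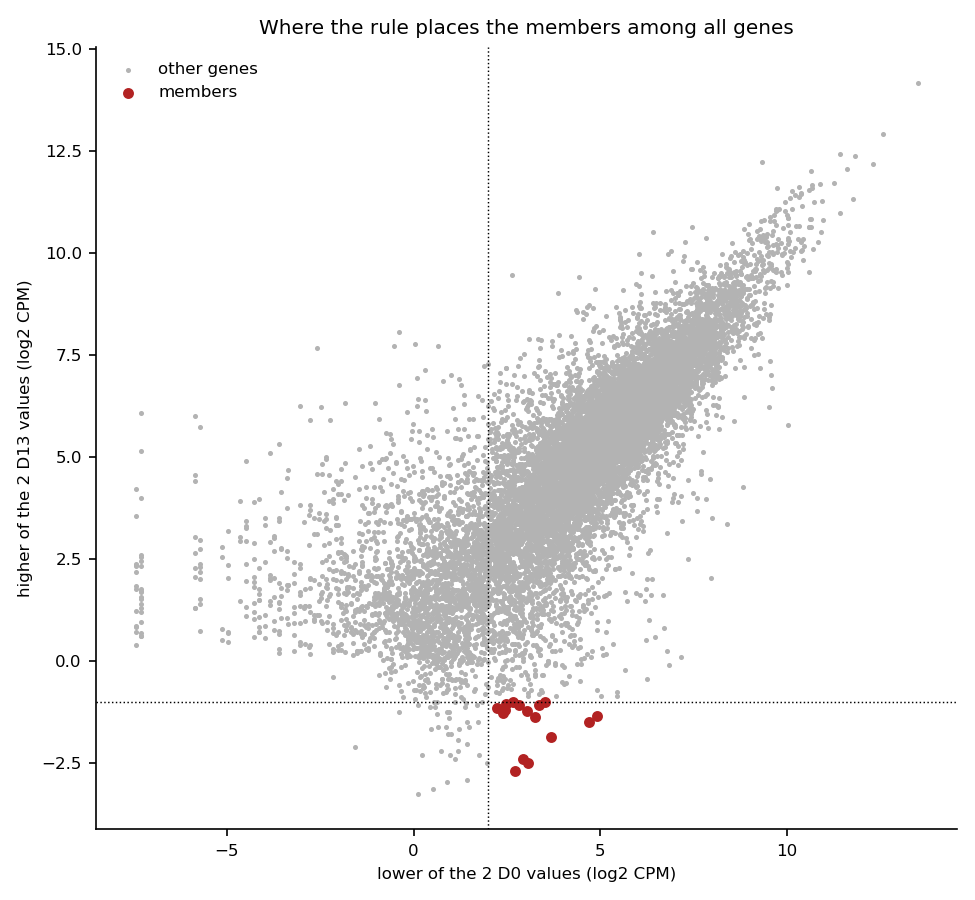
Lower of the 2 D0 values (x axis, log2 CPM) and higher of the 2 D13 values (y axis, log2 CPM) for each gene. Members are in red, other genes in grey, and dotted lines mark the thresholds of 2 and -1, which place the 16 members in the lower right corner, next to genes just across either line.

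Relatives of the members were then looked up, to see whether whole families were low at D13. They were named after the members were known and carry no test. Of 40 relatives looked for, 34 were listed. Their D13 mean was lower than at D0 for 20 and higher for 14, with a median log2 difference of -0.15 and a range from -5.54 to 2.23. None of the 34 had both D13 samples below -1.

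In the Id family, Id1 and Id2 also had lower means at D13 than at D0, while Id4 differed by 0.03. Id1 went from a log2 CPM of 7.35 and 4.56 at D0 to 1.23 and 0.32 at D13, and Id2 from 6.76 and 4.56 to 2.27 and 2.68. Id4 was at 2.40 and 2.61 at D0 and at 2.51 and 2.54 at D13. Replicate 1 was the higher D0 sample for Id1, Id2 and Id3.

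Of the relatives of Fgfr2, Fgfr1, the main FGF receptor of ES cells, was at a mean log2 CPM of 7.10 at D0 and 6.79 at D13. Fgfr3 and Fgfr4 differed by -1.26 and 1.86 between D0 and D13, both from a mean below 1 in serum. Ccnd1 and Ccnd3, the other D-type cyclins, were higher at D13 by 0.42 and 1.57, with means of 7.68 and 7.87 there. Ccnd2 at -1.56 was thus the only D-type cyclin at a low level at D13.

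Basp1, a growth cone protein that acts like Gap43, had the largest difference of any relative, -5.54, with 6.90 and 6.06 at D0 and 1.62 and 0.27 at D13. Marcks and Marcksl1, which bind the same membrane lipids, differed by -0.67 and 0.11. Irgm2 and Igtp, immunity GTPases like Irgm1, differed by -2.13 and -1.22, and Irgq by 0.02. Podxl, a sialomucin like Cd34, differed by -1.44, and Podxl2 by 0.37.

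Itgb1, the partner of Itga9, was at 8.80 at D0 and 8.81 at D13, so that the alpha subunit was low while the mean of its beta subunit was alike on both days. Bdh1, the mitochondrial counterpart of Bdh2, differed by 2.23, in the direction opposite to Bdh2. Bend3, which binds heterochromatin, differed by -3.27, from a mean of 7.72, and Bend6 by -0.98, whereas Bend4 and Bend7 differed by -0.04 and 0.27. Ctdsp1 differed by -1.86, while Ctdsp2 and Ctdspl2 differed by 0.87 and 0.10. For Ehd3, Foxn4, Klf12 and Ramp3, the 7 listed relatives differed by -0.78 (Klf3) to 0.39 (Klf8). Gpsm1 and Gpsm2 differed by -1.52 and -0.41.

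**Figure D4:**
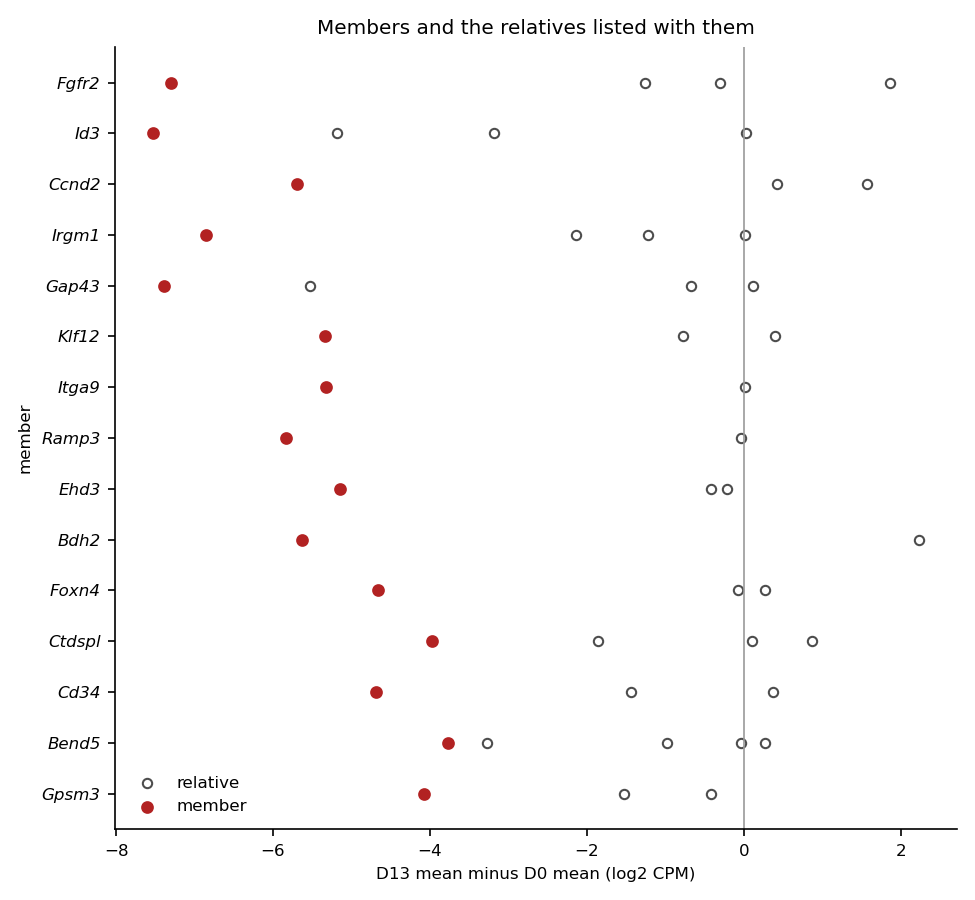
Mean at D13 minus mean at D0 on log2 CPM (x axis) for the 15 members with relatives looked for (y axis, red points) and for their 34 listed relatives (open circles), n = 2 per day. Basp1 beside Gap43 at -5.54 and Id1 beside Id3 at -5.18 have the widest differences of the relatives, and 14 relatives lie to the right of 0.

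Itga9 and Ctdspl were the only members within 1 Mb of each other. They lie on chromosome 9 on the plus strand, Itga9 at 118606709 to 118901003 and Ctdspl at 118926536 to 119044119, with 25.5 kb between them. Genes on either side were not low at D13. Golga4, upstream of Itga9, differed by -0.30 between D0 and D13, and Vill, downstream of Ctdspl, by 0.08. Farther off, Eomes differed by -0.44 and Exog by -2.67, and Slc22a13 was 6.74 higher at D13.

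To set the members beside known programs, 16 gene lists were counted in the D0 to D13 fit, with the members left out. Of 433 genes looked for, 261 were matched to a row, and 4 of these were members: Id3, Ccnd2, Gap43 and Cd34. A symbol with a capital G was matched only where its shortened name fits no other symbol. An unmatched gene of this kind can thus still have a row. Of the other 257, 69 were called lower at D13 (6.01% of all genes), 30 were called higher (7.45% of all genes) and 158 were neither. The lists and the members were chosen with earlier results known, so that these counts describe them only.

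Id3 is in the list of the BMP, Activin and TGF-beta pathway, where 5 of the other 19 genes were lower and 2 higher. Id1 fell by 5.18 on the log2 scale (standard error 0.76, limma adjusted p = 0.00094) and Bmp4, a ligand, by 2.66 (standard error 0.39, limma adjusted p = 0.001), whereas Bmp7 rose by 3.64 (standard error 0.32, limma adjusted p = 7.8e-05). Beside Gap43, 4 of 12 neural and ectoderm genes were lower and 2 higher. Sox11, a neural SOX factor, fell by 6.36 (standard error 0.61, limma adjusted p = 0.00011). Ncam1, of the same list, rose by 2.19 (standard error 0.32, limma adjusted p = 0.001). With or without a call, the D13 mean was below that of D0 for 7 of the 12. The summed CPM of these 12 genes was 557 and 533 at D0 and 192 and 190.2 at D13. No row was matched for 19 others of the 32 on the list, such as Pax6 and Olig2. Whether cells with neural transcripts had a part in the low Gap43 and Miat at D13 was not tested.

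Beside Cd34, 0 of 17 immune and surface genes were called lower and 5 were called higher. With the 4-fold minimum kept, 0 were lower at an unadjusted p under 0.05 in limma and 0 with voom weights. With or without a call, the D13 mean was below that of D0 for 8 of the 17. Ly6a, a surface antigen, rose by 7.58 (standard error 0.37, limma adjusted p = 6.7e-06). Beside Ccnd2, 2 of 13 genes on the list of cell cycle inhibitors and senescence were lower and 3 higher. Igfbp3, 1 of the 2 called lower, fell by 4.05 (standard error 0.39, limma adjusted p = 0.00012). Cdkn1a, a CDK inhibitor, rose by 3.04 (standard error 0.19, limma adjusted p = 2.2e-05).

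ERK targets and feedback, a list without a member, had the highest share of calls, with 13 of 20 lower and 0 higher. With the 4-fold minimum kept, 0 were higher at an unadjusted p under 0.05 in limma and 0 with voom weights. Egr1 fell by 7.47 (standard error 0.53, limma adjusted p = 2.9e-05) and Spry4, a feedback inhibitor, by 7.61 (standard error 0.66, limma adjusted p = 7.1e-05). Axon guidance and adhesion had 9 of 23 lower and 1 higher, led by Sema6a with -6.27 (standard error 0.37, limma adjusted p = 1.6e-05). Of imprinted genes 8 of 23 were lower and 2 higher, and of extracellular matrix genes 9 of 29 and 2. Of keratin, trophoblast and epithelial genes 7 of 21 were lower and 2 higher, and of primed epiblast and gastrulation genes 6 of 19 and 3. With or without a call, the D13 mean was lower for 20 of the 29 matrix genes and 11 of the 21 keratin, trophoblast and epithelial genes. The summed CPM of the matrix genes was 3241 and 4556 at D0 and 4534 and 5339 at D13. For the keratin, trophoblast and epithelial genes it was 1867 and 1953 at D0 and 1858 and 1733 at D13. Serum-responsive SRF and YAP targets had 3 of 16 lower and 0 higher, and Wnt pathway genes 3 of 18 lower and 3 higher. Of Two-cell-stage genes, 2 of 21 were listed and 0 were called in either direction. The 0 higher calls among SRF and YAP targets and the 0 calls of Two-cell-stage genes were also 0 with voom weights. They were 0 at an unadjusted p under 0.05 in limma with the 4-fold minimum kept.

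Markers of ES cells and of other cell types were counted in the same fit. All 16 ES cell identity genes were listed, with 1 lower (Utf1) and 4 higher, and Pou5f1 was at a mean log2 CPM of 9.79 at D0 and 9.82 at D13. Of 14 primitive endoderm genes, 4 were called lower (Dab2, Lamb1, Col4a1 and Col4a2) and 0 higher. With the 4-fold minimum kept, 0 were higher at an unadjusted p under 0.05 in limma and 0 with voom weights. With or without a call, the D13 mean was below that of D0 for 6 of the 14, and the median log2 difference was 0.45. The summed CPM was 805 and 1055 at D0 and 1546 and 915 at D13. The 8 endoderm genes without a matched row include Gata4, Sox7 and Foxa2. For Gata4, a symbol with a capital G, the lack of a match does not show absence. Of 14 mesenchymal and fibroblast genes 1 was lower and 3 higher, with a summed CPM of 198 and 98.6 at D0 and 419 and 359 at D13. The part of such cells in the levels of the members was not tested.

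**Figure D5:**
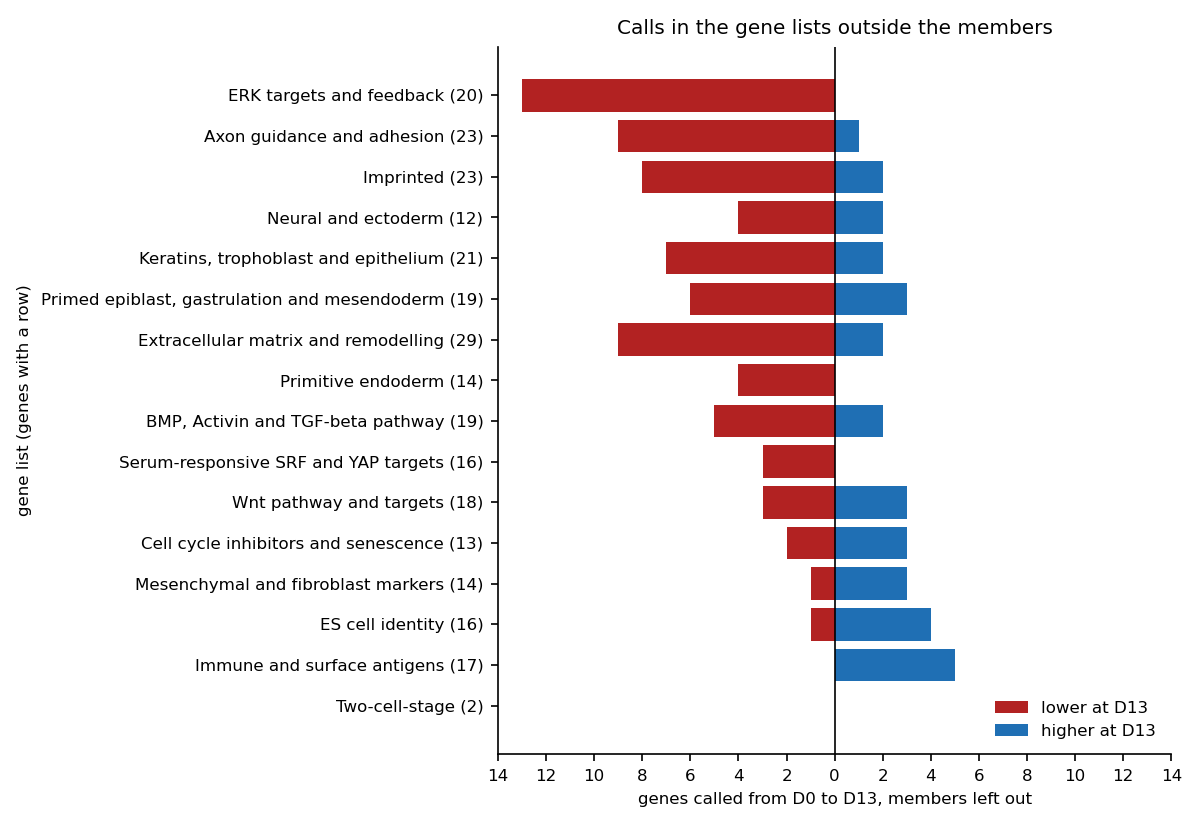
Number of genes called lower (red, to the left) or higher (blue, to the right) at D13 than at D0 (x axis) in each gene list (y axis, with the number of listed genes in brackets), members left out. The ERK list has 13 of 20 genes to the left and 0 to the right, and the immune and surface list 0 of 17 to the left and 5 to the right.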

How the data were processed

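RNA-seq libraries were made from total RNA with a stranded, poly(A)-based kit. According to the methods and the labels, the authors mapped reads onto mm10 with TopHat2 2.0.6 and the RefSeq annotation, counted them per gene with HTSeq 0.6.1, joined genes with transposon families, normalized with TMM from edgeR and deposited voom log2 CPM values per sample. The strand setting of the counting is not given in the sources used here. From each deposited log2 value a whole read number could be recovered (100% within 0.01), with an offset of 0.5, which gave 73230745 to 83688345 reads on genes per sample. A count of 3 reads was 0.034 to 0.042 CPM, and with 2 replicates per day an SD rests on 2 values.

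Samples were grouped by day from the labels. The log2 values of 12626 genes and 302 families were fitted together with limma 3.58.1 (R 4.3.3), with a mean per day, a mean-variance trend and no block, and the Benjamini-Hochberg adjustment covered all 12928 features. The 4-fold minimum and the limma framework follow the study's methods. Fold changes are on the scale of the log2 CPM with its offset of 0.5 reads. The fit was tested on simulated data. Python 3.11.15 with pandas 2.3.3 and numpy 2.4.6 was used for the tables. Transposon families entered the fit only.

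The members and gene lists were chosen with earlier results of these data known. All members are named, with every sample's value, together with the genes nearest to each threshold and up to 4 genes per list, those with the lowest adjusted p from D0 to D13. Relatives and neighboring genes were added later. Gene names in the files lack each capital G and the next letter, so that RefSeq symbols were matched after the same removal where only 1 symbol fitted. Of 1213 unique names that are no RefSeq symbol, 483 then matched a single symbol, among them Gap43 and Gpsm3. Gene bounds and promoters are from RefSeq on GRCm38.p6, and exon lengths and neighbors are from GENCODE vM21. Alternatives were other thresholds of the rule, the mean of the replicates, each sample left out, a filter of 10 reads in 2 samples, the replicate number as a block, the 2 compared days alone, no trend, voom precision weights, centring, a 2-fold minimum and an adjusted p under 0.01. A crossed replicate block was chosen after seeing the data.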

Additional observations from a re-analysis of the deposited data

How the results depend on the processing

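The number of members depended on the rule. It was 29 with a D0 threshold of 1 and 8 with 3, 83 with a D13 threshold of 0 and 3 with -2, and 34 on the mean of the replicates. Leaving out a single D0 or D13 sample gave 18 to 52 genes, with 25 without D13 replicate 1 and 52 without D13 replicate 2, and all 16 members were among them. Without D6 replicate 1, 2 members were below -1 at D6, and without D6 replicate 2 none was, so that the count ranged from 0 to 2. The median share of the log2 distance covered by D6 ranged from 56.5% to 65.9% over the fits without 1 sample, the lowest without D6 replicate 1. Over the fits without 1 sample, calls from D0 to D6 among the members ranged from 12 to 15, and those from D6 to D13 ranged from 0 to 4, with 1 without D6 replicate 1 and 0 without D6 replicate 2 or without D13 replicate 1, where 9 and 5 members had more than a 4-fold drop at an unadjusted p under 0.05 in limma. At an adjusted p under 0.01 the calls from D6 to D13 were 0, and 0 with voom weights. With the 4-fold minimum kept, 6 members were lower at an unadjusted p under 0.05 in limma. The lists had 63 to 71 genes lower and 27 to 34 higher without 1 sample, and 55 higher with a 2-fold minimum. The causes were not tested.

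The replicate numbers are shared between days without a stated link, and the difference between replicates correlated across genes with r = -0.13 for D0 with D6, 0.33 for D6 with D13 and 0.14 for D0 with D13. With the replicate number as a block, 16 members were called lower from D0 to D6, and 8 after D6, and 69 list genes were lower and 30 higher from D0 to D13. With the numbers crossed between D0 and D6, 15 members were called from D0 to D6. Of 54 called list genes among the 61 named, 48 kept their call in all alternatives, and no direction was reversed.

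Depth limits what is said of the members at D13, where 4 to 37 reads per sample leave a wide counting error.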
